A study of Mus musculus with 6 samples.

Results

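The tetraspanin family was examined in bone marrow of leukaemic mice with and without a targeted Gfi1b gene. Its members were the probe sets whose deposited gene symbol is Tspan followed by a number, or Cd9, Cd37, Cd53, Cd63, Cd81, Cd82 or Cd151. This gave 59 of 45101 probe sets and 26 of 20577 genes, and Cd63 is not analysed here. The 3 samples labelled Gfi1b KO carry Gfi1b fl/fl, the MxCre transgene and the NUP98/HOXD13 transgene. The 3 samples labelled Gfi1b wildtype carry wildtype Gfi1b and the same 2 transgenes, so both groups share the recombinase and the fusion oncogene. MxCre is an inducible recombinase driven by an interferon-responsive promoter and is active in haematopoietic and other cells. NUP98/HOXD13 joins parts of a nuclear pore gene and a homeobox gene, and mice that carry it develop myelodysplasia and then leukaemia. The labels give no age and do not say whether each sample came from its own mouse. The p-values therefore describe only how far these samples spread, which may be technical.

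Tetraspanins are small multi-pass membrane proteins with a short and a long extracellular loop. They bind one another and gather integrins, immunoglobulin superfamily proteins and membrane proteases into surface microdomains, and several also sort cargo into endosomes and extracellular vesicles. On blood cells, CD9, CD37, CD53, CD81, CD82 and CD151 mark and organise the surface of leukocytes, platelets and progenitors. A further subgroup, the TspanC8 proteins, carries the protease ADAM10 out of the endoplasmic reticulum and helps set which substrates it cuts.

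Expression values are log2 values from robust multi-array averaging (RMA), and differences are the mean of the samples labelled KO minus the mean of those labelled wildtype. The targeted gene itself read 10.88, 11.63 and 11.67 in KO replicates 1, 2 and 3, against 5.83, 6.37 and 4.38 in wildtype replicates 1, 2 and 3. It was higher in the samples labelled KO by 5.86 (SE 0.52, limma adjusted p = 0.00605, and 0.0584 without KO replicate 2), and an exact two-sided permutation test gave p = 0.1, the smallest that 3 against 3 samples allow. The labels do not say which part of the gene was deleted, and a probe set outside that part checks nothing, so every direction below is that of the libraries as labelled. A group mean below 3.82, the median of all values on the 6 arrays, is called near the floor, where RMA compresses differences. In bulk marrow, fewer cells of a type and less RNA per cell cannot be told apart.

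Among the tetraspanins, Tspan32 rose and Tspan5 fell in the samples labelled KO. Tspan32 encodes a tetraspanin of blood cells, known as Phemx or Tssc6, that acts in platelets and T cells. Tspan5 encodes a TspanC8 protein that supports ADAM10 and Notch signalling. These were the 2 of 26 genes past an adjusted p of 0.05 in limma over all genes, which is 7.69% of the family, against 4.53% of all 20577 genes. By direction, 1 of 26 rose, against a background of 2.2%, and 1 of 26 fell, against 2.33%, so the shares rest on single genes. The other 24 genes did not pass. The median difference of the family was -0.11, against 0.01 for all genes. At an unadjusted p under 0.05 there were 4 higher and 5 lower genes of 26, against 9.83% and 9.42% of all genes. The groups did not overlap in 6 of 26 genes, against 25.2% of all genes. Differences of at least 1 in size were seen in 9 of the 26 genes, against 9.63% of all genes, and 7 of these 9 did not pass the test. Both group means were near the floor in 3 genes (Tspan10, Tspan11 and Tspan12), against 35% of all genes.

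**Figure D1:**
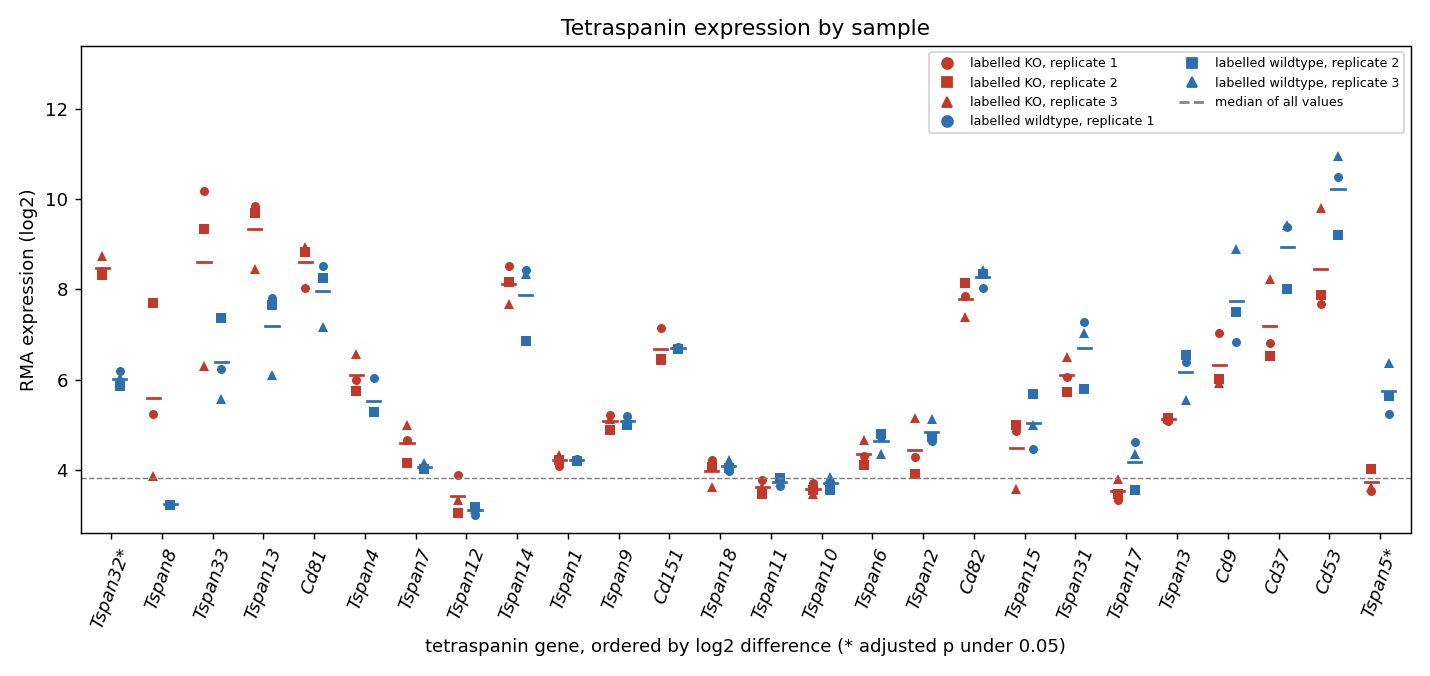
RMA expression (log2) of the 26 tetraspanin genes in each sample, one column per gene ordered by the difference, with samples labelled KO in red left of samples labelled wildtype in blue, horizontal bars for the group means (n = 3) and a dashed line at the median of all values (3.82). Tspan32 has the smallest adjusted p of the 26, Tspan33 and Tspan8 spread widely among the samples labelled KO, and levels are to be read within a gene only.

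The sequences before the start sites of Tspan32 and Tspan5 are shown because these are the genes that passed, in opposite directions, and because Gfi1b encodes a DNA-binding repressor. Each is the 250 bases before the gene's annotated start in RefSeq, build GRCm38.p6, 5′ to 3′ on the plus strand, which is the strand of both genes. Capitals mark GATAA, the core bound by GATA factors, and AATC, the core bound by GFI1 and GFI1B, on either strand (TTATC and GATT). The Tspan32 window is chr7:143004796-143005045 and the Tspan5 window is chr3:138741958-138742207.
Tspan32: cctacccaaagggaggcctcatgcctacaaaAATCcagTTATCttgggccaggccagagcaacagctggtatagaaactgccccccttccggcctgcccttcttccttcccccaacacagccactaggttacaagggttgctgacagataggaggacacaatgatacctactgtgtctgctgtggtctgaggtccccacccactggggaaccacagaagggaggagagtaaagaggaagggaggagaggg
Tspan5: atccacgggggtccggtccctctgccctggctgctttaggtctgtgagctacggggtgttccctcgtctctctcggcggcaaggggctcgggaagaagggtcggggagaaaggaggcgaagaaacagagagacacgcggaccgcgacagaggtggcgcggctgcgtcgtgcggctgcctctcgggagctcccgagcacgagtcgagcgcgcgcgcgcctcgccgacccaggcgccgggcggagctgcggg

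The Tspan32 window held 1 match to GATAA and 1 to AATC, which stand close together without overlap, and the Tspan5 window held 0 of either. Of 32851 RefSeq promoter windows of the same length, 22.6% held GATAA and 69.0% held AATC, so either match is common. The ETS core GGAA (TTCC on the other strand), which is not capitalised, matched 5 times before Tspan32 and 2 times before Tspan5, and 93.4% of all windows held it. The Tspan5 window was rich in CG dinucleotides, with 33 of them and a GC content of 70.8%, against 1 and 55.6% for Tspan32 and medians of 6 and 52.4% over all windows. Among 35 windows of 25 tetraspanin genes, 6 held GATAA and 29 held AATC. A match of letters is a description and does not show binding.

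Tspan32 read 8.40, 8.31 and 8.75 in KO replicates 1, 2 and 3, against 6.18, 5.85 and 6.04 in wildtype replicates 1, 2 and 3. The groups did not overlap, and the samples of a group lay close together. The means were 8.48 ± 0.23 under the KO label and 6.02 ± 0.17 under the wildtype label (SD, n = 3 each), 5.51-fold higher, a log2 difference of 2.46 (SE 0.17, limma adjusted p = 0.00418). The call held without any single sample, with adjusted p between 0.00309 and 0.0347. The size differed between its 2 probe sets. The further one read 7.32, 7.25 and 7.60 in the samples labelled KO, against 6.67, 6.99 and 6.85 in wildtype. Those values did not overlap either, but they differed by only 0.56 (limma adjusted p over all probe sets = 0.116). The brighter probe set is of the _a_at kind, which can read several transcripts of a gene, and without such probe sets Tspan32 did not pass (0.56, adjusted p = 0.106).

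Cd81 lies next to Tspan32 on mouse chromosome 7, with 0 protein-coding genes between them in RefSeq. It encodes a widely expressed tetraspanin. Cd81 read 8.03, 8.83 and 8.93 in the samples labelled KO, against 8.51, 8.25 and 7.16 in wildtype. The groups overlapped, and the difference of 0.63 did not pass (95% interval -0.35 to 1.60, limma adjusted p = 0.478). Of the 10 protein-coding genes nearest to Tspan32, 5 on either side, 9 were measured, Cd81 among them. In limma 0 of the 9 passed, against 4.53% of all genes, and none of the other 8 differed by as much as Cd81.

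None of the 6 measured CD-named tetraspanins passed in limma, and 3 of them, Cd37, Cd53 and Cd9, were lower in the samples labelled KO at an unadjusted p under 0.05, against 9.42% of all genes. The median difference of the 6 was -0.95, against 0.01 for all genes. Cd37, a leukocyte tetraspanin best known from B cells, read 6.80, 6.53 and 8.24 in KO replicates 1, 2 and 3, against 9.39, 8.01 and 9.43 in wildtype. KO replicate 3 lay above wildtype replicate 2, so the groups overlapped. The difference was -1.75 (95% interval -3.10 to -0.41, limma adjusted p = 0.15). The dimmer probe set of Cd37 differed by -0.64 without overlap (adjusted p over probe sets = 0.236).

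Cd53, which is restricted to leukocytes, read 7.67, 7.88 and 9.82 in the samples labelled KO, against 10.49, 9.20 and 10.96 in wildtype. KO replicate 3 again lay above wildtype replicate 2, and the difference of -1.76 did not pass (95% interval -3.40 to -0.13, limma adjusted p = 0.226). Its further probe set was near the floor in both groups. Cd9, a tetraspanin of platelets, progenitors and myeloid cells, read 7.02, 6.02 and 5.92 in the samples labelled KO, against 6.82, 7.49 and 8.90 in wildtype. KO replicate 1 lay above wildtype replicate 1, and the difference of -1.42 did not pass (adjusted p = 0.237). For all 3 genes the interval excludes 0, yet the adjustment over all genes leaves them above the threshold.

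Cd82 and Cd151 differed less. Cd82, also called Kai1 and known as a suppressor of metastasis and a regulator of stem cell quiescence, had means of 7.79 ± 0.38 under the KO label and 8.26 ± 0.21 under the wildtype label (SD, n = 3 each). Its difference of -0.47 did not pass (95% interval -1.01 to 0.06, limma adjusted p = 0.312), and its other probe set differed by 0.16. Cd151, a partner of laminin-binding integrins, had means of 6.68 ± 0.40 under the KO label and 6.70 ± 0.02 under the wildtype label (SD, n = 3 each). The 95% interval of its difference ran from -0.52 to 0.48 (adjusted p = 0.974). The 5 further probe sets of Cd151 differed by 0.12 to 0.50, and 0 of them passed in limma.

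The TspanC8 genes did not move together, and 1 of the 6, Tspan5, passed the test. Tspan5 read 3.53, 4.02 and 3.61 in KO replicates 1, 2 and 3, against 5.23, 5.64 and 6.36 in wildtype replicates 1, 2 and 3. The groups did not overlap, and 2 of the 3 samples labelled KO lay below the median of all values. The means were 3.72 ± 0.26 under the KO label and 5.75 ± 0.57 under the wildtype label (SD, n = 3 each), 4.08-fold lower, a log2 difference of -2.03 (SE 0.30, limma adjusted p = 0.0217). Since the KO mean is near the floor, this size may be compressed. The call was lost without KO replicate 1, 2 or 3, with adjusted p of 0.0717, 0.089 and 0.0625, while the difference stayed at -1.93, -2.18 and -1.97. The call held without any one wildtype sample. The other Tspan5 probe set, which was dimmer, differed by -0.56, also without overlap (adjusted p over probe sets = 0.222).

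Tspan33, also called Penumbra, is a TspanC8 protein of erythroid precursors and activated B cells. It read 10.18, 9.34 and 6.31 in KO replicates 1, 2 and 3, against 6.24, 7.37 and 5.57 in wildtype replicates 1, 2 and 3. KO replicates 1 and 2 were high, while KO replicate 3 lay below wildtype replicate 2. The difference of 2.22 therefore had a wide interval, from -0.21 to 4.64, and did not pass (limma adjusted p = 0.298). All 4 probe sets of Tspan33 placed KO replicates 1 and 2 above the other 4 samples, and they differed by 1.56 to 2.22. Without KO replicate 3 the difference was 3.37 (adjusted p = 0.0529), and without KO replicate 1 it was 1.43.

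The remaining TspanC8 genes were not separated between the groups. Tspan14, an ADAM10 partner of platelets and endothelium, had means of 8.12 ± 0.42 under the KO label and 7.88 ± 0.89 under the wildtype label (SD, n = 3 each), with wildtype replicate 2 lowest at 6.85 (limma adjusted p = 0.837). Tspan15, another ADAM10 partner, had means of 4.47 ± 0.79 under the KO label and 5.04 ± 0.61 under the wildtype label (adjusted p = 0.584). Tspan17 had means of 3.53 ± 0.24 under the KO label, which is near the floor, and 4.17 ± 0.55 under the wildtype label (adjusted p = 0.292). Without wildtype replicate 2, the lowest of its group at 3.55, the Tspan17 difference was -0.96 and passed (adjusted p = 0.0464). The other Tspan17 probe set differed by 0.00, so the direction depends on the probe set. Tspan10, known from the eye and osteoclasts, was near the floor in both groups and cannot show a difference. Adam10 itself, singled out after its value was seen, had means of 7.80 under the KO label and 7.79 under the wildtype label, with a difference of 0.01 (adjusted p = 0.995).

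**Figure D2:**
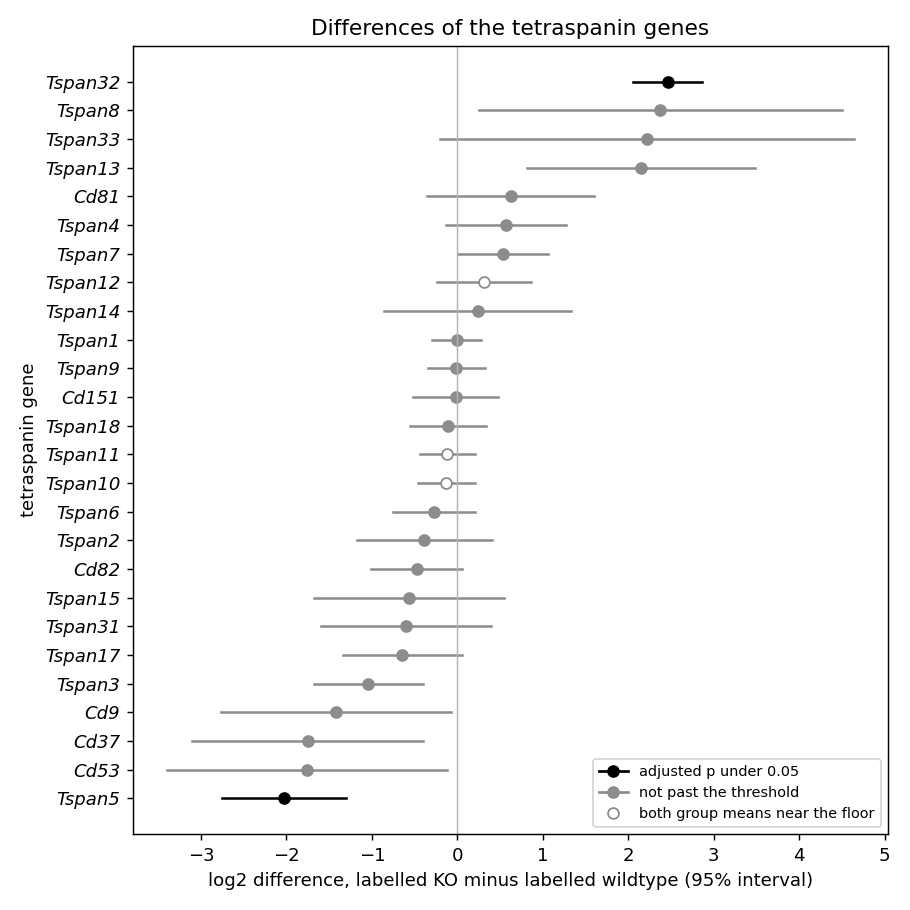
Log2 difference (labelled KO minus labelled wildtype) of each tetraspanin gene with its 95% interval from limma, in black where the adjusted p was under 0.05, in grey otherwise, and with an open point where both group means were near the floor. Tspan32 at 2.46 has a narrow interval (2.06 to 2.86), while Tspan8, Tspan33 and Tspan13 have differences of similar size with wide intervals.

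Among 8 other tetraspanins listed for blood cells, Tspan32 alone passed, and 3 more, Tspan13, Tspan8 and Tspan3, had groups that did not overlap and differences of at least 1 in size. Of all genes, 25.2% did not overlap and 9.63% differed by at least 1. Tspan13, also called NET-6, read 9.85, 9.69 and 8.44 in KO replicates 1, 2 and 3, against 7.80, 7.64 and 6.10 in wildtype replicates 1, 2 and 3. In both groups replicate 3 was the lowest. The difference was 2.15, 4.43-fold, with a limma adjusted p of 0.0907 that did not pass. The further probe set of Tspan13 read 7.71, 8.36 and 7.70 in the samples labelled KO, against 7.26, 6.44 and 5.48 in wildtype. It also showed no overlap and differed by 1.53 (adjusted p over probe sets = 0.142).

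Tspan8, a tetraspanin mainly known from epithelia and tumours, read 5.24, 7.71 and 3.85 in KO replicates 1, 2 and 3, against 3.25, 3.22 and 3.22 in wildtype. The wildtype mean was near the floor, and KO replicate 2 stood far above the other 2 samples of its group. The difference of 2.37 had an interval from 0.25 to 4.50 and did not pass (limma adjusted p = 0.209). Of the 5 probe sets of Tspan8, the other 4 were near the floor in both groups. Without KO replicate 2 the difference was 1.32, and without _s_at, _x_at and _a_at probe sets it was 0.13.

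Tspan3, a tetraspanin with a described role in the self-renewal of myeloid leukaemia cells in mice, read 5.08, 5.15 and 5.11 in the samples labelled KO, against 6.39, 6.53 and 5.54 in wildtype. The samples labelled KO were nearly identical, and wildtype replicate 3 lay closest to them. The difference of -1.04, 2.06-fold lower, did not pass (limma adjusted p = 0.0862). Without wildtype replicate 3 it was -1.35 and passed (adjusted p = 0.0189).

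The other 4 genes of this group had overlapping samples. Tspan4, known from migrasomes, had means of 6.09 ± 0.42 under the KO label and 5.53 ± 0.43 under the wildtype label (SD, n = 3 each; limma adjusted p = 0.362). Tspan31, which was found as a gene amplified in sarcoma, had means of 6.10 ± 0.39 under the KO label and 6.70 ± 0.80 under the wildtype label (adjusted p = 0.506). Tspan2 differed by -0.39 (adjusted p = 0.605). Tspan9, a platelet tetraspanin, differed by -0.01, with an interval from -0.35 to 0.33 (adjusted p = 0.982). The interval of Tspan9 therefore allows at most a small difference on this scale, while those of Tspan2 and Tspan31 do not.

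The remaining 6 tetraspanins, known mainly from other tissues, differed by between -0.27 and 0.53, and 0 of 6 passed in limma. Tspan7, a neuronal tetraspanin on the X chromosome, read 4.67, 4.16 and 4.98 in the samples labelled KO, against 4.06, 4.01 and 4.14 in wildtype. Its groups did not overlap, but the adjusted p was 0.25, and its 2 further probe sets were near the floor. Tspan6 differed by -0.27, Tspan18, which acts in endothelial calcium entry, by -0.11, and Tspan1 by -0.01. Tspan11 and Tspan12, a coreceptor in norrin signalling of the retina, were near the floor in both groups.

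**Figure D3:**
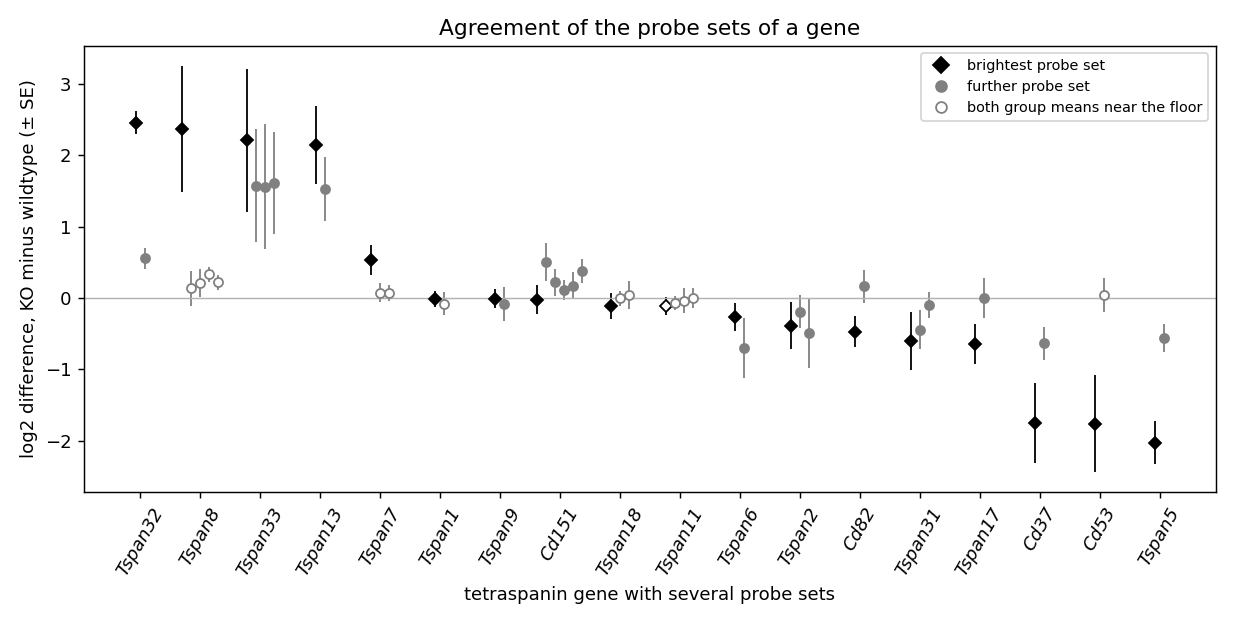
Log2 difference (KO minus wildtype, ± SE from limma over all probe sets) of every probe set of the 18 tetraspanin genes with several, with a black diamond for the brightest probe set, grey circles for the others, and open symbols where both group means were near the floor. The 4 probe sets of Tspan33 and the 2 of Tspan13 lie on the same side, while the 2 of Tspan32 and the 2 of Tspan5 share a side but not a size.

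The 18 genes with several probe sets allowed a check within the array. Of 33 further probe sets, 13 were near the floor in both groups and 19 in neither. Of these 19, 12 had the same sign as the brightest probe set of their gene, and the exceptions were the 5 of Cd151 and 1 each of Cd82 and Tspan17. None of the 33 passed over all probe sets in limma. The test in the authors' deposited table runs over probe sets and listed 2 of 59 tetraspanin probe sets past its adjusted p, the brightest of Tspan32 and the brightest of Tspan5, against 2.93% of all probe sets in the limma fit over probe sets.

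Markers of marrow cell types also differed between the groups, and their part in the tetraspanin results was not tested. Over all genes, 2.2% rose and 2.33% fell past the threshold. Of 12 neutrophil markers 9 fell, and their summed level (log2 of the sum of linear values) ranged from 7.77 to 12.26 in the samples labelled KO, against 15.78 to 17.20 in wildtype. Of 12 monocyte and macrophage markers 6 fell, with sums of 7.92 to 8.82 in the samples labelled KO, against 11.09 to 13.41 in wildtype. Of 13 erythroid markers 3 rose, with sums of 14.37 to 14.60 in the samples labelled KO, against 10.68 to 12.85 in wildtype. In these 3 lists, 0 markers were near the floor in both groups. Of 11 B cell markers 2 fell (sums 7.70 to 7.78 in the samples labelled KO, against 9.62 to 10.03 in wildtype), with 4 near the floor in both groups. Of 15 T and NK cell markers 0 passed (8.55 to 9.42, against 9.13 to 12.11 in wildtype), and 0 did at an unadjusted p under 0.05. Their median difference was -1.09, 13 of the 15 differences were negative, and the samples labelled KO lay wholly below wildtype in 7, against 11.9% of all genes. Of 12 megakaryocyte and platelet markers 1 rose, and of 12 of stroma and endothelium 1 rose. Of 9 mast cell and basophil markers 0 passed in limma. At an unadjusted p under 0.05, 2 of them were higher and 1 lower, against 9.83% and 9.42% of all genes. Of 11 stem and progenitor markers 0 passed in limma, with 3 higher and 1 lower at an unadjusted p under 0.05, against the same shares. Markers of neutrophils, monocytes and erythroid cells, all found in bone marrow, were thus above the floor in at least 1 group, whereas 4 of 11 B cell markers were not.

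Several tetraspanins, Tspan33 and Cd9 among them, followed the order of a marker list within each group. Tspan14 and Cd151 followed both the monocyte and the megakaryocyte means, and Tspan9 followed the B cell mean. With 3 samples per group and many pairs of gene and list, such matches arise easily, and their meaning was not tested. The mean of the erythroid markers was 9.47, 9.18 and 7.55 in KO replicates 1, 2 and 3, against 6.88, 8.21 and 6.32 in wildtype replicates 1, 2 and 3. Tspan33 had the same order within each group, with replicate 1 highest among the samples labelled KO and replicate 2 highest in wildtype. Tspan32 did not, since KO replicate 3, the lowest of its group in the erythroid mean, read highest for Tspan32. The mean of the neutrophil markers was 7.59, 5.92 and 4.13 in KO replicates 1, 2 and 3, against 11.23, 11.55 and 13.05 in wildtype. Cd9 had that order of samples within both groups. Cd37 and Cd53 were lowest in wildtype replicate 2, as was the mean of the monocyte markers within wildtype (7.73, 6.30 and 7.32), but they were highest in KO replicate 3, where that mean was lowest of its group at 4.19.

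**Figure D4:**
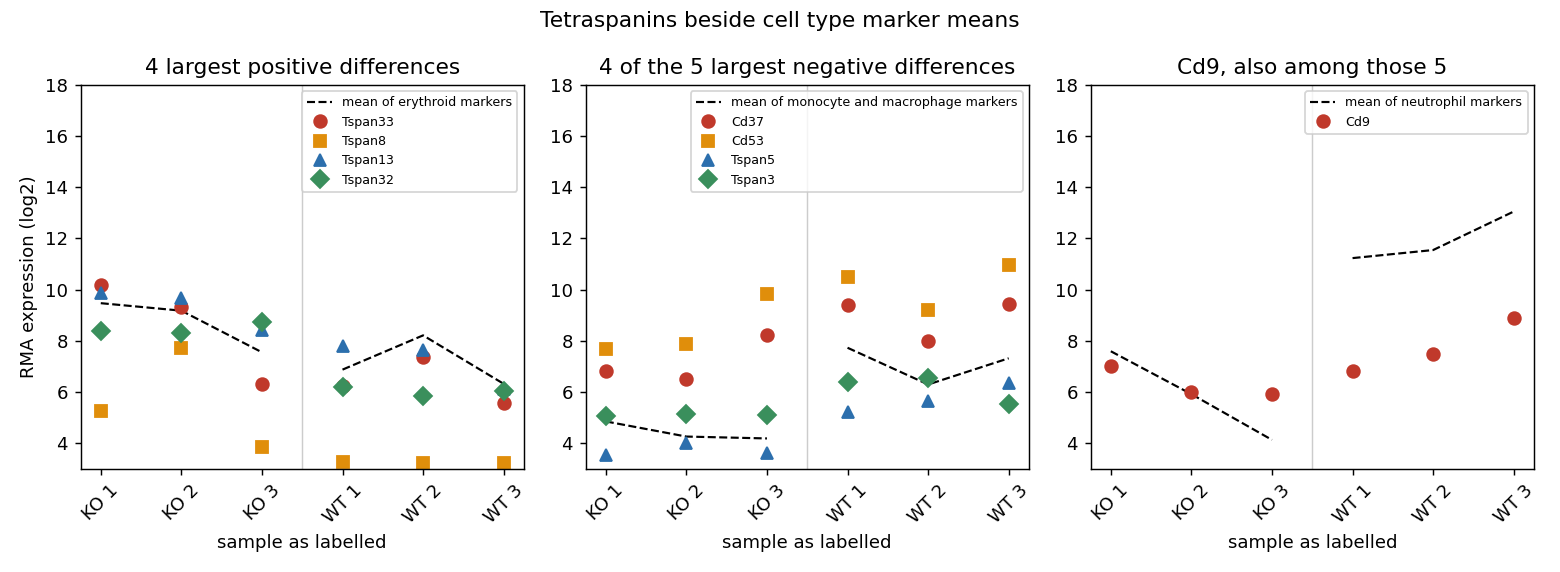
RMA expression (log2) by sample of the 9 tetraspanin genes with the largest differences, chosen after their values were seen, with the mean of a cell type marker list as a dashed line, samples labelled KO left of wildtype (WT). Tspan33 follows the erythroid mean from sample to sample, with 10.18 in KO replicate 1 and 6.31 in KO replicate 3, whereas Tspan32 stays between 8.31 and 8.75 in the samples labelled KO.

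Lists of genes for the binding, anchoring or trafficking of tetraspanins, and for ADAM10 shedding and its substrates, differed in how many members passed. All are called partner genes here, though a listed receptor or ADAM10 substrate need not bind a tetraspanin. Of 114 measured genes in all lists outside the members, which also hold 4 tetraspanins with other names and 4 genes of the L6 family, 3 rose and 13 fell in limma, and 98 did not pass. This is 14% called, against 4.53% of all genes, with a median difference of -0.18, against 0.01 for all genes. The 2 shares rest on unlike levels, since both group means were near the floor in 16 of the 114, against 35% of all genes. After a filter on dim genes, 17 partner genes passed, and 1135 of 12596 genes in all. The partner genes left by this filter were not counted, so their share cannot be set beside that of all genes. The 21 genes of vesicles and lysosomal sorting had a median of 0.06, and the 8 palmitoyltransferases one of -0.04. Some, such as Itga2b and Kit, also stand in the marker lists above. The count of 16 was 4, 1 and 5 without KO replicates 1, 2 and 3, and 7, 24 and 7 without wildtype replicates 1, 2 and 3.

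Of 20 integrin genes, 4 fell and 1 rose, against 2.33% and 2.2% of all genes, and 15 did not pass. Of the leukocyte integrin chains, Itgb2, Itgal and Itgam fell, while Itgax and Itgb7 did not pass, nor did Itgae and Itga4, which were near the floor in both groups. Itgb2, the beta chain that Itgal and Itgam share, was 7.98-fold lower (limma adjusted p = 0.0246). Its partner Itgal fell by 2.73 (adjusted p = 0.0249), and its partner Itgam fell by 3.92 (adjusted p = 0.0288). Itgam had a KO mean of 3.77, near the floor, so its change may be compressed. Itgav fell by 1.69 (adjusted p = 0.0325). Itga2b, the platelet integrin chain whose complex binds Tspan32 in mouse platelets, read 7.74, 7.35 and 7.97 in the samples labelled KO, against 6.25, 6.13 and 5.41 in wildtype, and rose by 1.76 (adjusted p = 0.0232). Itgb1, the common partner chain of CD151 and CD9 complexes, differed by 0.82 without overlap and did not pass (adjusted p = 0.0957; named after its value was seen).

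Of 28 surface receptors and partners, 3 fell and 1 rose, against 2.33% and 2.2% of all genes. Igsf8, also called EWI-2 and a direct partner of CD9 and CD81, read 5.57, 6.13 and 5.58 in the samples labelled KO, against 6.99, 7.18 and 7.37 in wildtype. Its groups did not overlap, and it fell by 1.42 (limma adjusted p = 0.0179). Clec7a, the beta-glucan receptor Dectin-1 that CD37 binds, fell by 3.95 (adjusted p = 0.00787). Igsf6, an immunoglobulin superfamily receptor of myeloid cells, fell by 4.48 (adjusted p = 0.00865). Its KO mean of 3.65 was near the floor, so this size may be compressed. Mmp14, a membrane-type metalloproteinase whose trafficking tetraspanins affect, read 8.04, 8.08 and 9.06 in the samples labelled KO, against 3.68, 3.79 and 3.85 in wildtype. It rose by 4.62 (adjusted p = 0.00302), a size that may also be compressed since wildtype was near the floor. The other 24 did not pass.

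Of 16 genes of ADAM10 shedding and its substrates, 2 fell and 0 rose, against 2.33% and 2.2% of all genes. At an unadjusted p under 0.05, 0 were higher and 5 lower, against 9.83% and 9.42% of all genes. Notch1, whose cleavage TspanC8 proteins help, read 4.14, 4.46 and 3.65 in the samples labelled KO, against 7.00, 10.10 and 7.22 in wildtype. It fell by 4.02 (limma adjusted p = 0.0466). Wildtype replicate 2 was the highest, and it was also the sample with the highest mean of the T and NK cell markers, at 7.08. Il6ra, the interleukin-6 receptor chain that is shed from leukocytes, fell by 3.69 (adjusted p = 0.0338).

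Of 13 kinases and adaptors of tetraspanin microdomains, 3 fell and 0 rose, against 2.33% and 2.2% of all genes. The protein kinase C isoform Prkcb fell by 3.36 (limma adjusted p = 0.0459), and another, Prkcd, fell by 2.03 (adjusted p = 0.028). The small GTPase gene Rac1 fell by 0.74 (adjusted p = 0.0401). Of 21 genes of extracellular vesicles and lysosomal sorting, 1 fell and 1 rose, against the same shares. Rab27a, a GTPase that docks secretory vesicles, read 3.83, 4.29 and 3.96 in the samples labelled KO, against 7.08, 6.61 and 7.62 in wildtype, and fell by 3.08 (adjusted p = 0.00605). Ap3b1, a subunit of the adaptor that sorts CD63 to lysosomes, read 10.74, 10.78 and 9.06 in the samples labelled KO, against 7.99, 7.72 and 7.95 in wildtype, and rose by 2.31 (adjusted p = 0.0457). Of 8 palmitoyltransferases, enzymes of the kind that lipidates tetraspanins, 0 passed in limma and 0 did at an unadjusted p under 0.05.

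**Figure D5:**
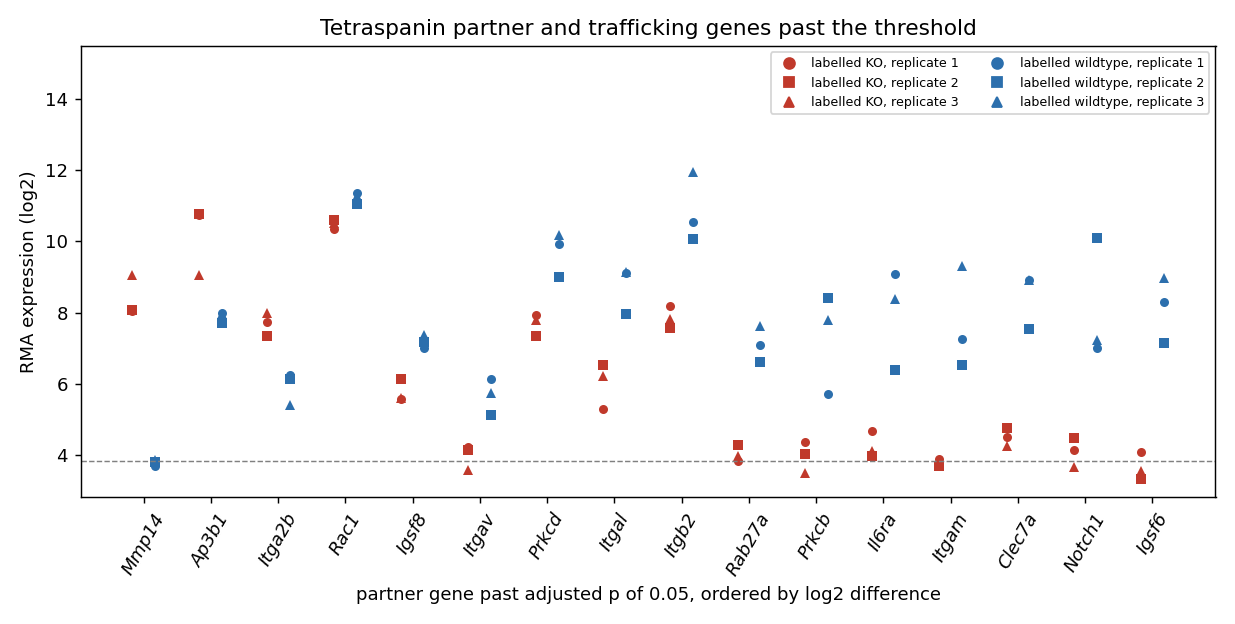
RMA expression (log2) by sample of the 16 partner and trafficking genes, ADAM10 substrates included, past an adjusted p of 0.05, ordered by the difference. Samples labelled KO are in red, left of samples labelled wildtype in blue, with one symbol per replicate. A dashed line marks the median of all values (3.82). Mmp14, Ap3b1 and Itga2b lie higher in the samples labelled KO and the other 13 lower, and the groups of each gene do not overlap.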

How the data were processed

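Per the labels, 200 ng of total RNA from leukaemic bone marrow was hybridised to MG-430_2.0 arrays. The submitters' processing notes name RMA as the source of the deposited log2 values. RMA corrects background, equalises the arrays by quantiles and summarises each probe set. Array medians lay between 3.73 and 3.86. The authors' deposited annotated table adds gene symbols, signed fold changes, p-values and adjusted p-values, and its group means differed by 0 from those of the other table.

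Of 45101 probe sets, 37285 name 1 gene. Old symbols were updated through RefSeq synonyms, and the probe set with the highest mean represented a gene. Genes were compared with limma 3.58.1 (lmFit, eBayes) in R 4.3.3, with two-sided p-values adjusted by Benjamini-Hochberg across 20577 genes and no filter. The fit was also run on simulated data with independent, normally distributed values per gene, which does not show how it performs on these arrays. Members, lists and tests were chosen with earlier results of these data known. Named genes are those past the threshold, the CD-named and TspanC8 members, non-overlapping members differing by at least 1, and up to 5 called genes per list. Promoter windows are RefSeq's, GRCm38.p6. Plots were made in Python 3.11.15 (matplotlib 3.10.9).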

Additional observations from a re-analysis of the deposited data

How the results depend on the processing

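Precision is limited by how few arrays there are, 6 in all. The count of 933 genes past the threshold was 589 with the replicate block, and it ranged from 47 (without KO replicate 2) to 1445 (without wildtype replicate 2). The labels do not say whether same-numbered samples were paired. Their deviations from the group means correlated between -0.14 and -0.0001, and 0 of 3 samples labelled KO correlated best with their own number. With 3 samples per group, these values show no pairing but cannot exclude it. With the replicate block, 2 tetraspanin genes were higher, Tspan32 and Tspan13 (2.15, limma adjusted p = 0.0195), and no other tetraspanin call changed. Without _s_at, _x_at and _a_at probe sets, 0 tetraspanin genes were higher in limma and 3 were at an unadjusted p under 0.05. With single samples left out, the count of higher tetraspanin genes was 1 throughout, that of lower ones ranged from 0 to 2 (with 3 to 5 lower at an unadjusted p under 0.05 where it was 0), and that of partner genes ranged from 1 to 24. Gfi1b differed by 5.29 to 6.29. Signs turned only for named tetraspanins that had not passed: Cd151 with array weights (0.028), with the mean of all probe sets (0.23) and with samples left out (-0.25 to 0.10), Tspan14 with samples left out (-0.27 to 0.52), and Tspan17 without _s_at, _x_at and _a_at probe sets (0.00387) and after repeated quantile normalization (0.0499), when its other probe set represented it. Among all alternative values of the 16 named tetraspanins, 224 kept direction and side of the threshold, 3 newly passed, 4 no longer passed and 7 turned sign. The cause of the other differences was not tested. A planned filter on dim genes left 12596 genes to test, without Tspan10, and gave 1135 calls.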

Other observations

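Tetraspanins that carry other names and a structurally similar family were also measured. Upk1a, Upk1b, Prph2 and Rom1, tetraspanins of the urothelium and the photoreceptor, differed by -0.04, -0.14, -0.11 and 0.25, and 0 of 4 passed in limma or at an unadjusted p under 0.05. Of 4 measured genes of the L6 family, which shares the multi-pass form but is not related by sequence, 4 were near the floor in both groups.

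Tspan5 has neighbours on chromosome 3 that moved in both directions. Of the 10 nearest protein-coding genes in RefSeq, 9 were measured and 2 passed, against 4.53% of all genes. Rap1gds1, next to Tspan5, had means of 5.95 under the KO label and 7.43 under the wildtype label and fell by 1.48 (limma adjusted p = 0.00865). Metap1, on the other side with 1 gene between, had means of 7.98 under the KO label and 7.16 under the wildtype label and rose by 0.81 (adjusted p = 0.0375). These neighbours were looked at after the value of Tspan5 was seen.

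Of 4 pairs of tetraspanin genes with at most 5 protein-coding genes between them, 3 besides Tspan32 and Cd81 held no gene past the threshold. They were Tspan18 with Cd82, Tspan11 with Tspan9, and Cd151 with Tspan4, which has 1 gene between them.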
